A study of Homo sapiens with 48 samples.

Results

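Directed ectoderm and directed endoderm cultures of one human embryonic stem cell line were compared directly, gene by gene. The comparison used 8 of the 48 libraries of the series, 4 labelled as ectoderm and 4 labelled as endoderm, and all 8 were chosen by those labels. WA09 (H9), a long-established line of human embryonic stem cells, was the source of every library, and the labels give its genotype as normal. The study treated these cultures as positive controls for lineage genes in work on embryoid bodies. The ectoderm cultures grew for 6 days in Essential 6 medium with 100 nM of LDN-193189 and 2 µM of A83-01. The endoderm cultures were made over 5 days with a commercial definitive endoderm kit, whose composition is not given in the sources used here. Medium, agents and days all differ with the group, so their parts in any difference cannot be told apart. A further 4 undifferentiated libraries (hESC) and 4 mesoderm libraries entered the same fit, and their levels are given only as description. Nothing in the labels says that replicates came from separate cultures, so p-values measure only the spread between these libraries. In bulk RNA, fewer cells of a type and less RNA per cell cannot be told apart.

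Definitive endoderm forms from the primitive streak under strong Nodal or activin signalling, which passes through type I activin receptors to SMAD2 and SMAD3 and, at many targets, the DNA-binding factor FOXH1. Nodal needs the coreceptor TDGF1 (CRIPTO), switches on its own gene, and induces LEFTY1 and LEFTY2, secreted proteins that block it. Ectoderm takes a neural fate when Nodal, activin and BMP signalling are low. A83-01 inhibits the activin, Nodal and TGF-beta type I receptors, and LDN-193189 inhibits BMP type I receptors, a pairing in common use for neural induction.

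RASL-Seq anneals probe pairs to captured poly(A) RNA, ligates the pairs that sit side by side, and sequences the ligated products, so a read counts one amplified probe pair. The panel held 1113 probes for 452 genes, and the reads of all probes of a gene were summed. Totals ran from 2283016 to 3334662 reads in ectoderm and from 2982467 to 4227384 in endoderm, with replicate 3 the lowest in both groups. Levels are given as CPM (counts scaled to a common library size) on library sizes scaled by TMM, a method that balances the bulk of genes between libraries. Because probes differ in efficiency, CPM is compared between libraries for a gene and not between genes.

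The promoters of NODAL, GDF3 and CYP26A1, all among the 12 named genes higher in endoderm, are shown because each holds letters that match a site of Nodal or retinoic acid signalling. They were taken from RefSeq (GRCh38.p14) and run 5′ to 3′ on the gene's strand, from 250 bases before the annotated start to 50 after it. Capitals mark matches, on either strand, to the SMAD box CAGAC, the FOXH1 site AATNCACA or the DR5 retinoic acid response element, a direct repeat with a spacer, and these motifs do not overlap in the 3 windows. NODAL, at chr10:70441632-70441931 on the minus strand, holds 1 SMAD box. GDF3, at chr12:7695726-7696025 on the minus strand, holds 2 SMAD boxes and 1 FOXH1 match. The downstream of 2 annotated CYP26A1 starts, at chr10:93073643-93073942 on the plus strand, holds the retinoic acid element and 1 SMAD box.
NODAL: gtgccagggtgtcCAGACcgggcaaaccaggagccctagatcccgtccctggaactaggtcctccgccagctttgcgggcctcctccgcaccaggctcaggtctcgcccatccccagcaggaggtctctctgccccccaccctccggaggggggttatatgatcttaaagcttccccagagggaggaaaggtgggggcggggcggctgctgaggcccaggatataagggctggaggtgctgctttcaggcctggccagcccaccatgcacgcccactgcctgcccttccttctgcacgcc
GDF3: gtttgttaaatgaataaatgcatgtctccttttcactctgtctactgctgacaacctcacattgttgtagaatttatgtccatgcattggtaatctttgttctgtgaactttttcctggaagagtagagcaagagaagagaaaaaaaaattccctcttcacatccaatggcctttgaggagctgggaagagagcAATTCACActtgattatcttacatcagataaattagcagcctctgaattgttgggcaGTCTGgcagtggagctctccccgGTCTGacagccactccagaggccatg
CYP26A1: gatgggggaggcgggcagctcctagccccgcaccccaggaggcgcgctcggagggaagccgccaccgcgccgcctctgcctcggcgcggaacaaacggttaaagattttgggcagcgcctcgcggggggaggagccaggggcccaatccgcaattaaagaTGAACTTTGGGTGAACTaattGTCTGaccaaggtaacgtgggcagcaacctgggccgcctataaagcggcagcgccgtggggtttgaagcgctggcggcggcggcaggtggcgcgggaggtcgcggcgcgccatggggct

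A match is a description of letters, not a shown binding site. Of 35116 RefSeq promoter windows of this length, 45.3% hold the SMAD box, 3.31% the FOXH1 letters and 0.0114% (4 windows) the exact retinoic acid letters. Other spellings of the retinoic acid element were not searched, so this share does not count them. The 12 named endoderm genes, defined below, had 9 windows of 6 genes in the table, of which 5 held the SMAD box, 1 the FOXH1 letters and 1 the retinoic acid element. The 12 named ectoderm genes had 16 windows of 11 genes, of which 5 held the SMAD box, 1 the FOXH1 letters and 0 the retinoic acid element.

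Most of the panel differed between the cultures. With edgeR's quasi-likelihood test and an adjusted p threshold of 0.05, 335 of 387 genes tested were called (86.6%), 168 higher in ectoderm (43.4%) and 167 higher in endoderm (43.2%). The 4 ectoderm and 4 endoderm values did not overlap for 318 genes (82.2%). Many differences were large: 133 genes were called and at least 2-fold higher in ectoderm (34.4%) and 114 in endoderm (29.5%), while 61 genes were called and at least 10-fold higher in ectoderm (15.8%) and 53 in endoderm (13.7%). The median log2 fold change of all tested genes, ectoderm minus endoderm, was -0.10, and 65 genes had too few reads to be tested. The split of calls moved with scaling: calls higher in ectoderm made up 50.1% with TMM, 60.9% with library totals alone and 69.5% when 3 reference genes set the scale.

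Among listed genes of Nodal, activin and BMP signalling, those called higher in endoderm belonged to Nodal signalling. Of 53 fixed genes of Nodal, activin and BMP signalling, 9 were among the genes analysed here, and of these 6 were higher in endoderm (43.2% of all genes tested), 1 was higher in ectoderm (43.4%) and 2 were not called. The 6 were NODAL, GDF3, TDGF1, LEFTY1, LEFTY2 and EOMES, all on the Nodal side, while of the BMP genes ID1 was higher in ectoderm and SMAD1 and MSX1 were not called. The median log2 fold change of the 9 was -10.18, or -7.93 with NODAL and GDF3 set to their bounds, against -0.10 for all genes tested. The pathway is described below by role, from ligands to targets.

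The ligand NODAL had 243, 262, 241 and 241 CPM in the 4 endoderm libraries and 0, 0, 0 and 0.568 CPM in the 4 ectoderm libraries. NODAL was thus read in every endoderm library and, in ectoderm, by 2 reads in replicate 4 only. It was at least 244-fold higher in endoderm, where the bound takes 3 reads in each ectoderm library (edgeR adjusted p = 1.31e-18). hESC stood between them at 8.94 ± 1.76 CPM (SD, n = 4).

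GDF3, a Nodal-related ligand of pluripotent cells, had 50.3, 48.3, 54.9 and 44.3 CPM in endoderm and 0 reads in all 4 ectoderm libraries. The groups did not overlap, and endoderm was at least 48.8-fold higher (edgeR adjusted p = 6.14e-15). Unlike NODAL, GDF3 had its highest level in hESC, at 257 ± 21.2 CPM.

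TDGF1, the coreceptor, had 7045, 7550, 7480 and 6678 CPM in endoderm against 0, 1.20, 2.03 and 10.5 CPM in ectoderm. Every endoderm library was far above every ectoderm library, and ectoderm replicate 4 was the highest of its group. The mean was 2093-fold higher in endoderm, with a log2 fold change of -10.88 ± 0.38 (SE; edgeR adjusted p = 1.16e-12), or -12.63 without ectoderm replicate 4. hESC held 2156 ± 159 CPM, so TDGF1 was above the hESC level in endoderm and below it in ectoderm.

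The Nodal inhibitor LEFTY2 had 349974, 372907, 423463 and 327149 CPM in endoderm. In ectoderm it had 2.16, 1.5, 29.6 and 236 CPM. Endoderm libraries spread little around a high level, while ectoderm values ran from 5 reads in replicate 2 to 833 reads in replicate 4. LEFTY2 took between 26.2% and 30.2% of all reads of the endoderm libraries, a share that lowers the share left to all other genes and that TMM scaling takes into account. The mean was 5462-fold higher in endoderm, with a log2 fold change of -12.37 ± 1.33 (SE; edgeR adjusted p = 1.04e-06), or -15.09 ± 0.77 without ectoderm replicate 4. In hESC the level was 52.8 ± 5.36 CPM.

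LEFTY1, the neighbouring paralog, had 30985, 30664, 31182 and 31196 CPM in endoderm and 0.721, 0.301, 3.25 and 27 CPM in ectoderm. Again ectoderm replicate 4 was the highest of its group, and all 8 values fell in 2 separate ranges. The log2 fold change was -11.81 ± 0.60 (SE; edgeR adjusted p = 2.34e-10), or -14.45 without that library. Each of the 3 LEFTY1 and 3 LEFTY2 probes gave a log2 fold change of -11.00 or lower. The genes lie 47457 bases apart on chromosome 1 (LEFTY1 at chr1:225886282-225889146 and LEFTY2 at chr1:225936603-225941220, GRCh38.p14). Their GENCODE 29 transcripts are 96.3% identical over 1202 aligned bases, and 493 of 1577 windows of 50 bases in LEFTY1 (31.3%) occur without a mismatch in LEFTY2. Which probes could take reads from the other gene was not tested, so the level of LEFTY1 beside so much LEFTY2 is uncertain.

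**Figure D1:**
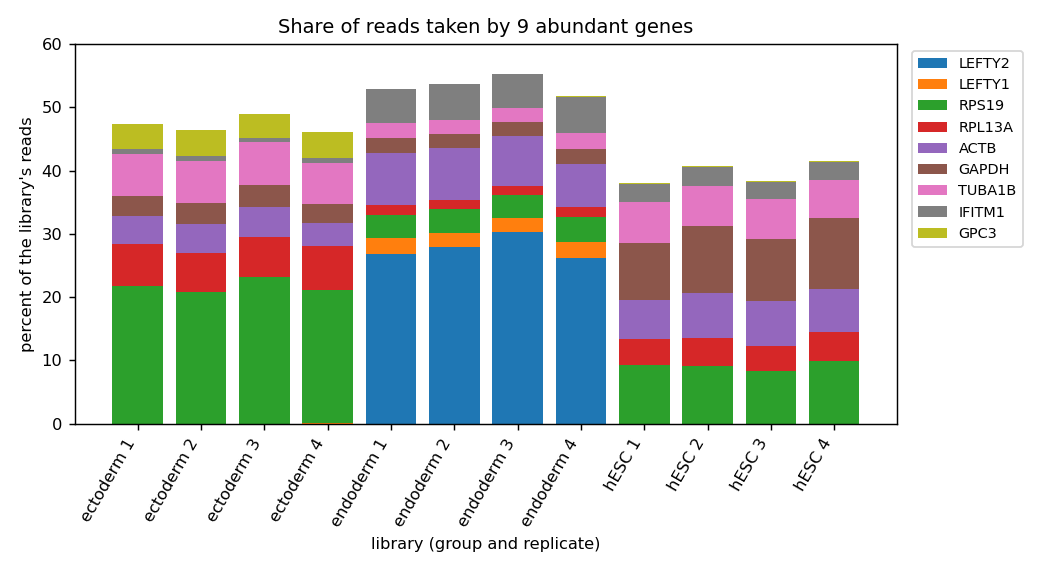
Share of each library's reads, in percent on the vertical axis, taken by 9 abundant genes in the 4 ectoderm, 4 endoderm and 4 hESC libraries (1 bar each). LEFTY2 takes 26.2% to 30.2% in endoderm and is too small to see in ectoderm, where RPS19 takes 20.8% to 23.2%.

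Among the transducers and targets, EOMES, a T-box factor induced by Nodal, had 327, 293, 606 and 254 CPM in endoderm and 0, 0.301, 0 and 1.42 CPM in ectoderm. Endoderm replicate 3 was the highest and ectoderm replicate 4 held most of the few ectoderm reads, and the groups did not overlap. The log2 fold change was -9.42 ± 0.53 (SE; edgeR adjusted p = 1.21e-10), or -11.10 without ectoderm replicate 4. ID1, a direct target of BMP signalling, went the other way: it had 37.8, 34.6, 50.3 and 38.3 CPM in ectoderm against 15.5, 14.8, 19.2 and 16.5 CPM in endoderm. Every ectoderm library was above every endoderm library (log2 fold change 1.29 ± 0.17, SE, edgeR adjusted p = 5.61e-07). The ectoderm mean of 40.3 CPM was close to the hESC mean of 41.4 CPM. MSX1, a BMP target of the neural plate border (8.53 against 7.16 CPM), and SMAD1, a BMP transducer (26.9 against 24.6 CPM), were not called and their ranges overlapped. Both were called higher in ectoderm with library totals alone, at log2 fold changes of 0.70 and 0.63.

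The 24 genes named by rule were the 12 with the largest log2 fold change each way among called genes whose higher group averaged 50 reads or more. None of the 24 had overlapping groups, beside 82.2% of all genes tested without overlap. LEFTY2, LEFTY1, TDGF1, NODAL and GDF3 of the signalling pathway made up 5 of the 12 on the endoderm side. The rule used this contrast, so the sizes and separation of the 24 describe the extremes of the panel.

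**Figure D2:**
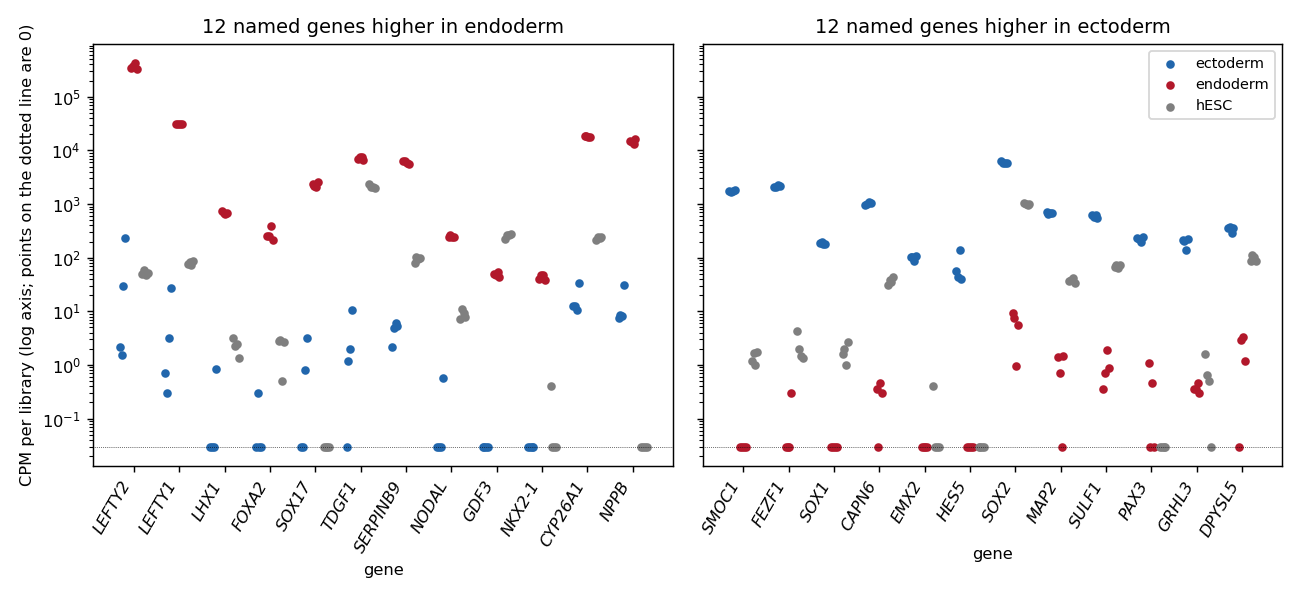
CPM on a log axis for each library (1 point each) of the 12 named genes higher in endoderm, left, and the 12 higher in ectoderm, right, in ectoderm, endoderm and hESC; points on the dotted line are 0. The ectoderm and endoderm points of each gene lie in separate ranges.

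Most endoderm transcription factors of the list were higher in endoderm. Of 10 tested, 8 were higher in endoderm (43.2% of all genes tested), 0 were higher in ectoderm and 2 were not called, with a median log2 fold change of -9.65 (-8.73 with genes at or near 0 set to their bounds). The summed level of the list ran from 10011 to 10454 CPM in endoderm and from 30.4 to 41.4 CPM in ectoderm. FOXA1, a pioneer factor of endoderm that other tissues also use, was read in both cultures, at 22.3 CPM in ectoderm and 107 CPM in endoderm (log2 fold change -2.26 ± 0.15, SE, edgeR adjusted p = 5.82e-12).

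SOX17, a defining factor of definitive endoderm, had 2393, 2213, 2085 and 2538 CPM in endoderm and 0, 0, 0.812 and 3.12 CPM in ectoderm. All 4 hESC libraries had 0 reads, and no ectoderm library had more than 11. The mean was 2346-fold higher in endoderm (log2 fold change -11.02 ± 0.34, SE, edgeR adjusted p = 3.26e-12), or -12.97 without ectoderm replicate 4.

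FOXA2, the pioneer factor that marks endoderm and the node, had 256, 253, 393 and 217 CPM in endoderm and 1 read in the whole of ectoderm, in replicate 2. It was at least 276-fold higher in endoderm (edgeR adjusted p = 8.99e-14). LHX1, a LIM factor of the anterior streak, had 731, 694, 647 and 682 CPM in endoderm and 3 reads in ectoderm, all in replicate 4, and was at least 679-fold higher (edgeR adjusted p = 1.36e-20). In hESC neither gene passed 3.18 CPM in any library.

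GATA6, a zinc finger factor of endoderm, averaged 3619 ± 285 CPM in endoderm and 3.51 ± 3.34 CPM in ectoderm (SD, n = 4). HHEX, an anterior endoderm homeobox factor, averaged 2733 ± 124 CPM and 3.96 ± 1.51 CPM. Both were separated by group, with log2 fold changes of -9.89 (-10.83 without ectoderm replicate 4) and -9.36. HHEX was also read in hESC at 298 ± 14.5 CPM, whereas GATA6 was at 0.0823 CPM there. NKX2-1, a factor of thyroid, lung and ventral forebrain, had 40.6, 47.6, 47.0 and 37.8 CPM in endoderm and 0 reads in all ectoderm libraries, so it was at least 42.7-fold higher in endoderm. Both of its probes were called in that direction. The members not called were SOX7 (3.52 CPM in ectoderm and 5.27 in endoderm), called without ectoderm replicate 3 at a log2 fold change of -1.01, and CDX2, a hindgut and trophoblast factor at 0.165 and 0.751 CPM. CDX2 reached 978 CPM in the mesoderm libraries.

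Of 5 tested endoderm surface and secreted genes, 4 were higher in endoderm (43.2% of all genes tested) and 1 was not called, with a median of -3.46. NPPB, which encodes the natriuretic peptide BNP, had 15060, 14198, 13340 and 16537 CPM in endoderm and 7.57, 8.72, 8.12 and 31.5 CPM in ectoderm. Replicate 4 stood above the other ectoderm libraries, yet no ectoderm library came near endoderm, and all hESC libraries had 0 reads. The mean was 1058-fold higher in endoderm (log2 fold change -9.97 ± 0.40, SE, edgeR adjusted p = 8.04e-10), or -10.77 without ectoderm replicate 4. NPPB was measured by a single probe.

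Ectoderm also expressed 3 further members of that list. IFITM1, an interferon-inducible membrane protein, had 71223 to 75363 CPM in endoderm and 5902 to 7780 CPM in ectoderm (log2 fold change -3.46). FZD5, a Wnt receptor, had 24564 to 29728 and 2378 to 2523 CPM (-3.44). EPCAM, an epithelial adhesion molecule, had 6766 to 6967 and 151 to 228 CPM (-5.16). None of these 3 had overlapping groups. ALB, the liver's albumin, was near the limit of detection in both cultures (3.25 and 3.81 CPM) and was not called.

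Named genes outside the lists and pathways above were few on the endoderm side. SERPINB9, an inhibitor of granzyme B, had 6285, 6322, 5739 and 5498 CPM in endoderm and 2.16, 4.81, 6.09 and 5.39 CPM in ectoderm, a 1292-fold difference in means. CYP26A1, the enzyme that breaks down retinoic acid and itself a retinoic acid target, had 18586, 18911, 17654 and 17727 CPM in endoderm. In ectoderm it had 12.6, 12.3, 10.6 and 34.1 CPM. Its downstream promoter window, printed above, holds the retinoic acid element, and its upstream window does not. Whether retinoic acid was present in either medium is not given in the sources used here. The level in hESC was 231 ± 14.1 CPM, above every ectoderm library and below every endoderm library. The CYP26A1 mean was 1048-fold higher in endoderm (log2 fold change -9.98 ± 0.28, SE, edgeR adjusted p = 4.74e-14).

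Neural transcription factors formed the other pole, with more exceptions. Of 20 early neural factors tested, 15 were higher in ectoderm (43.4% of all genes tested), 4 were higher in endoderm (43.2%) and 1 was not called. Their median log2 fold change was 3.60 (3.11 with bounds). Their summed level ran from 14228 to 14732 CPM in ectoderm and from 4944 to 5072 CPM in endoderm. The endoderm sum was above the hESC range of 3951 to 4192 CPM.

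PAX6, the paired-box factor of early human neuroectoderm, had 825, 844, 752 and 929 CPM in ectoderm and 141, 171, 154 and 151 CPM in endoderm. The groups did not overlap, but endoderm was well above hESC, where no library passed 0.891 CPM. Ectoderm was 5.43-fold higher than endoderm (log2 fold change 2.44 ± 0.11, SE, edgeR adjusted p = 2.17e-13), and the 2 probes gave 2.24 and 2.53. In the same endoderm libraries SOX1 had 0 reads and SOX2 at most 9.34 CPM.

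SOX1, the neural plate factor, had 186, 195, 180 and 180 CPM in ectoderm and 0 reads in all 4 endoderm libraries, and was at least 166-fold higher (edgeR adjusted p = 1.52e-15). SOX2, a factor of both pluripotent and neural cells, had 6274, 5763, 5861 and 5780 CPM in ectoderm against 9.34, 7.58, 0.939 and 5.61 CPM in endoderm. SOX2 stood above its hESC level of 993 ± 35.8 CPM in ectoderm and below it in endoderm. The ratio of means was 1009-fold (log2 fold change 9.91 ± 0.20, SE, edgeR adjusted p = 1.46e-19).

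FEZF1, EMX2 and SIX3 were higher in ectoderm, whereas OTX2 and NKX2-1, which are also used in the forebrain, were higher in endoderm. FEZF1, a zinc finger factor of the forebrain, had 2081, 2076, 2238 and 2174 CPM in ectoderm and a single read in endoderm, in replicate 4, and was at least 1924-fold higher. EMX2, of the dorsal telencephalon, had 104, 103, 88.5 and 107 CPM and 0 reads in endoderm, and was at least 90.4-fold higher. SIX3, of the anterior neural plate and eye field, was called in the same direction by a smaller margin, 256 to 292 CPM against 140 to 162 CPM (log2 fold change 0.85 ± 0.08, SE, edgeR adjusted p = 4.85e-09).

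HES5, a Notch effector of neural progenitors, had 57.7, 43.6, 138 and 40.3 CPM in ectoderm and 0 reads in endoderm and in hESC. Replicate 3 was well above the other ectoderm libraries, which widened the error. HES5 was at least 62.8-fold higher in ectoderm and had the highest adjusted p of the 24 named genes (edgeR, 0.00414). DLL1, a Notch ligand outside the lists that was picked after its values were seen, averaged 1184 CPM in ectoderm and 18.2 CPM in endoderm (log2 fold change 6.03 ± 0.11, SE, edgeR adjusted p = 1.23e-21).

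Further members of the list were also higher in ectoderm, at lower levels or with other patterns in hESC. NR2F2, an orphan nuclear receptor, averaged 607 CPM in ectoderm and 14.8 CPM in endoderm, and its relative NR2F1 21.5 and 1.20 CPM. GBX2, a factor of the anterior hindbrain, averaged 57.3 and 5.37 CPM, both below the hESC mean of 757 CPM. NEUROG2, a proneural factor, averaged 21.5 and 0.180 CPM. OLIG1 rested on few reads, at 0.520 CPM in ectoderm and 0 reads in endoderm, and lost its call without ectoderm replicate 4 (edgeR adjusted p = 0.13) and without endoderm replicate 4 (0.052).

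The 4 neural factors that were higher in endoderm included OTX2, LMX1A and HESX1. OTX2, a forebrain factor that is also used in anterior endoderm, had 1307, 1244, 1331 and 1319 CPM in endoderm and 400, 379, 422 and 381 CPM in ectoderm. Both cultures were far above hESC (25.5 ± 4.45 CPM), endoderm the more so, and all 3 probes were called in that direction at -0.64, -2.30 and -2.36 on the log2 scale. LMX1A, a factor of the roof plate and ventral midbrain, had 325, 334, 325 and 306 CPM in endoderm and 138, 141, 119 and 158 CPM in ectoderm, with 0 reads in every hESC library. Its 2 probes gave -1.13 and -1.15. HESX1, at 123 and 78.5 CPM (-0.65), turned to 0.23 with reference gene scaling. ZIC2 was not called at 1893 CPM in ectoderm and 2003 CPM in endoderm (-0.08), and was called at 0.41 with library totals alone. ZIC1, by contrast, averaged 1370 ± 66.2 CPM in ectoderm and 18.2 ± 3.82 CPM in endoderm (log2 fold change 6.24 ± 0.13, SE, edgeR adjusted p = 4.70e-21).

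**Figure D3:**
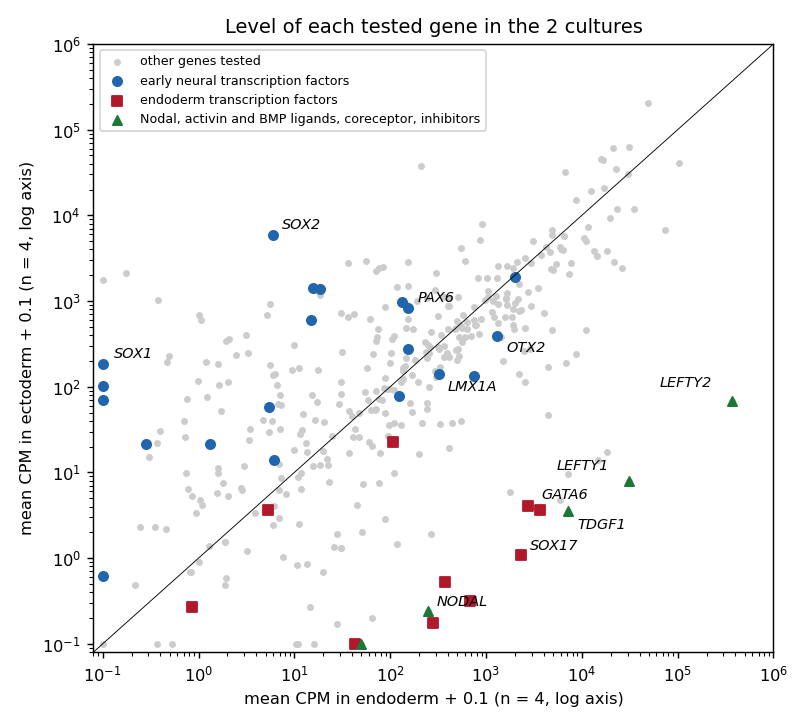
Mean CPM of each tested gene in endoderm (horizontal, log axis) and ectoderm (vertical, log axis), n = 4 each, with 0.1 CPM added so that 0 can be drawn, and a line of equal level. Most endoderm factors and all the Nodal ligands, coreceptor and inhibitors drawn lie far below the line, most early neural factors lie above it, and OTX2 and LMX1A lie below it.

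Of 13 genes of neural progenitors and neurites, 9 were higher in ectoderm (43.4% of all genes tested), 3 were higher in endoderm (43.2%) and 1 was not called. Their median was 2.90. Their summed level did not separate the cultures, at 14118 to 14254 CPM in ectoderm and 14179 to 16035 CPM in endoderm. It was 3660 to 4128 CPM in hESC and 31223 to 34776 CPM in mesoderm. MAP2, a neuronal microtubule protein, had 702, 658, 674 and 692 CPM in ectoderm and 1.44, 0.721, 0 and 1.48 CPM in endoderm, a 750-fold difference in means. FABP7, a radial glial lipid carrier, averaged 696 and 5.12 CPM (log2 fold change 7.09), PTN, a secreted growth factor, 2511 and 83.9 CPM (4.90), and NES, the progenitor filament nestin, 4122 and 553 CPM (2.90). None of these 4 had overlapping groups.

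The genes of this list that were higher in endoderm were TUBB3, CDH2 and VIM. TUBB3, a tubulin used as a marker of young neurons, had 112, 116, 91.7 and 134 CPM in ectoderm and 2832, 2513, 1926 and 2967 CPM in endoderm. It was lower in ectoderm than in hESC (1429 ± 129 CPM) and rested on 1 probe (log2 fold change -4.49 ± 0.24, SE, edgeR adjusted p = 9.04e-11). CDH2, N-cadherin, found in neuroepithelium and in cells leaving the streak, averaged 2081 ± 87.1 CPM in ectoderm and 7306 ± 745 CPM in endoderm (log2 fold change -1.81), with its 3 probes between -1.67 and -1.78. VIM, vimentin, differed little, at 3769 and 4668 CPM (-0.31), and its sign turned with library totals alone (0.19) and reference gene scaling (0.58). NCAM1 was not called at 94.6 and 93.1 CPM, and was called higher in ectoderm with library totals alone (0.52).

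Other named genes on the ectoderm side belonged to varied families. SMOC1, a secreted matrix protein that modulates BMP signalling, had 1726, 1669, 1788 and 1802 CPM in ectoderm and 0 reads in all 4 endoderm libraries, and was at least 1568-fold higher. CAPN6, a calpain-family protein, ran from 965 to 1088 CPM in ectoderm and had at most 1 read in any endoderm library, and was at least 925-fold higher. SULF1, which edits heparan sulfate outside the cell, ran from 559 to 631 CPM in ectoderm and from 0.359 to 1.88 CPM in endoderm. GRHL3, a grainyhead factor of surface ectoderm, had 210, 203, 139 and 225 CPM in ectoderm and 1 read in each endoderm library, and was at least 174-fold higher. DPYSL5, an axon guidance protein, had 361, 375, 284 and 361 CPM in ectoderm and averaged 1.84 CPM in endoderm. In each of these 5 genes the lowest ectoderm library was above the highest endoderm library.

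Markers of neighbouring cell types were mixed. Of 7 neural crest and neural plate border genes, 3 were higher in ectoderm (43.4% of all genes tested), 3 were higher in endoderm (43.2%) and 1 was not called. Their median was 0.22. PAX3, a dorsal neural and crest factor, had 237, 222, 194 and 248 CPM in ectoderm and at most 3 reads in any endoderm library, and was at least 202-fold higher. SNAI2 (51.6 against 1.63 CPM) and the neurotrophin receptor NGFR (114 against 1.94 CPM) were also higher in ectoderm. FOXD3 (0.0710 against 27.5 CPM), ETS1 (1.22 against 30.5 CPM) and SOX10 (20.0 against 64.9 CPM) were higher in endoderm, and their ranges did not overlap. The crest lineage marker SOX10 was thus read in both cultures and at 3.37 CPM in hESC. The summed level of the list was 372 to 457 CPM in ectoderm, 123 to 155 CPM in endoderm and 315 to 387 CPM in hESC. It was highest in the mesoderm libraries, at 4280.5 to 5094.5 CPM.

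Of 7 primitive streak and mesoderm genes tested, 5 were higher in endoderm (43.2% of all genes tested), 1 was higher in ectoderm (43.4%) and 1 was not called. Their median was -3.45, or -3.42 with bounds. T, the streak factor brachyury, had 66.5, 73.6, 89.7 and 74.3 CPM in endoderm and 5.05, 7.52, 7.71 and 9.37 CPM in ectoderm (log2 fold change -3.33 ± 0.15, SE, edgeR adjusted p = 4.60e-15). The same gene averaged 1523 CPM in the mesoderm libraries. PDGFRA, a mesodermal receptor, averaged 45.5 CPM in endoderm and 4.03 CPM in ectoderm, and HAND1, a factor of extraembryonic and cardiac mesoderm, 10.8 CPM and 0 reads. FOXF1 was called on few reads and lost its call without endoderm replicate 4 (edgeR adjusted p = 0.055). KDR, a receptor of vascular progenitors, was higher in ectoderm at 87.9 against 54.0 CPM. Summed over the list, the level was 93.5 to 112 CPM in ectoderm, 192 to 217 CPM in endoderm, 214 to 226 CPM in hESC and 2086 to 2248 CPM in mesoderm. The part of other cell types in the differences between ectoderm and endoderm was not tested.

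**Figure D4:**
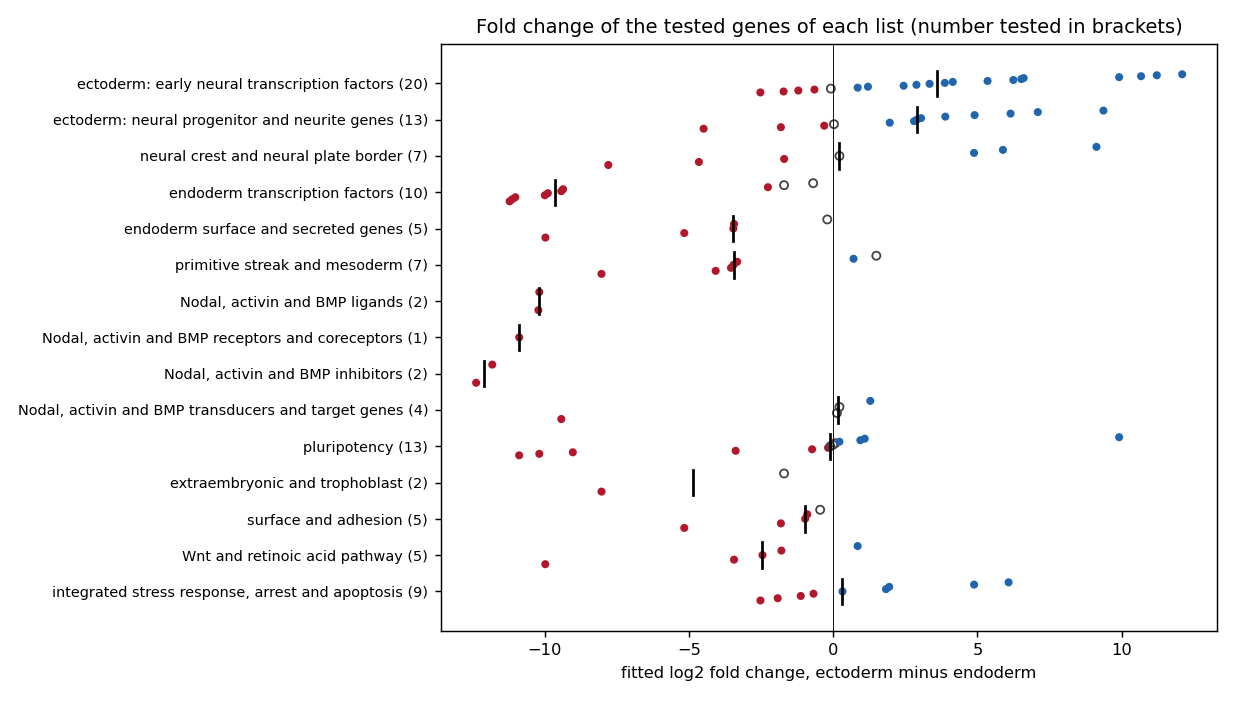
Fitted log2 fold change, ectoderm minus endoderm (horizontal axis), of each tested gene of the fixed lists (number tested in brackets), with filled points for called genes, open points for genes not called and a bar at each list's median. Endoderm factors have a median of -9.65 and early neural factors one of 3.60, with 4 neural factors on the endoderm side.

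Pluripotency genes differed in pattern between the cultures. Of 13 tested, 4 were higher in ectoderm (43.4% of all genes tested), 6 were higher in endoderm (43.2%) and 3 were not called. Their median of -0.10 was that of all genes tested. NANOG, a core pluripotency factor that Nodal and activin signalling sustains, had 57.1, 69.6, 53.5 and 77.9 CPM in endoderm and 1 read in ectoderm, in replicate 3. Both were far below hESC (1731 ± 143 CPM), and endoderm was at least 63.7-fold above ectoderm (edgeR adjusted p = 2.69e-16). L1TD1, an RNA-binding protein of pluripotent cells, had 2679 to 3110 CPM in endoderm, near the hESC mean of 3184 CPM, and 268 to 297 CPM in ectoderm (log2 fold change -3.38). DNMT3B, a de novo DNA methyltransferase, averaged 334 CPM in ectoderm and 556 CPM in endoderm against 3096 CPM in hESC (-0.73, or 0.16 with reference gene scaling).

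Log2 fold changes of LIN28A, LIN28B, DPPA2 and DPPA4 were smaller than those of NANOG and L1TD1. LIN28A, an RNA-binding protein that blocks let-7 maturation, ran from 5322 to 6559 CPM in ectoderm and from 6260 to 6854 CPM in endoderm. The groups overlapped, and its log2 fold change of -0.18 lost its call under DESeq2 and turned to 0.32 with library totals alone. Its relative LIN28B was higher in ectoderm, at 872 against 409 CPM (1.09), as was DPPA2, at 38.8 against 20.5 CPM (0.94). DPPA4 averaged 581 CPM in ectoderm and 500 CPM in endoderm, with overlapping groups (0.22), and lost its call without endoderm replicate 3 (edgeR adjusted p = 0.093). ZFP42 (71.8 and 76.8 CPM) and SALL4 (1107 and 1055 CPM) were not called. POU5F1 had 0 reads in all 8 libraries and only 7.51 CPM in hESC, where the gene is known to be active, so its 1 probe could not tell these cultures apart.

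Of 5 tested genes of Wnt signalling and retinoic acid metabolism, 4 were higher in endoderm (43.2% of all genes tested) and 1 was higher in ectoderm (43.4%). Their median was -2.45. FZD7, a Wnt receptor, averaged 4015 CPM in endoderm and 735 CPM in ectoderm, and SFRP1, a secreted Wnt antagonist, 13281 and 3829 CPM. FRZB, another secreted Wnt antagonist, was higher in ectoderm at 1841 against 1022 CPM (log2 fold change 0.85 ± 0.09, SE, edgeR adjusted p = 1.24e-08). The Wnt antagonists SFRP1 and FRZB were thus called in opposite directions.

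All 9 tested genes of the integrated stress response, growth arrest and apoptosis were called, 5 higher in ectoderm and 4 in endoderm, beside 86.6% of all tested genes, split almost evenly, so the count does not set the list apart. Their median was 0.32. Those higher in endoderm included DDIT3, the stress factor CHOP (216 against 37.3 CPM), HSPA5, the chaperone BiP (1430 against 378 CPM), and ATF4, the response's transcription factor (5040 against 2314 CPM). ATF4 lost its call with reference gene scaling (-0.23). BBC3, which promotes apoptosis, was also higher in endoderm (396 against 246 CPM, log2 fold change -0.68), and turned to 0.21 with that scaling. The genes higher in ectoderm were CDKN1A, the cell cycle inhibitor p21, with 296, 316, 285 and 326 CPM against 10.1, 10.5, 3.29 and 15.3 CPM, FAS, a death receptor (39.4 against 0.606 CPM), TNFSF9, GDF15 and GADD45A. CDKN1A did not overlap between groups and differed by a log2 fold change of 4.88 ± 0.18 (SE; edgeR adjusted p = 4.66e-16). FAS was at least 35.4-fold higher in ectoderm.

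Probes of the same gene mostly gave the same answer. In the test of single probes, 720 of 903 were called (79.7%). Of 322 genes with at least 2 tested probes, 285 had all probes on the same side of 0, and the median range between probes of a gene was 0.39 on the log2 scale. Opposite calls came from 3 genes. The cell adhesion gene CADM1 had probes at 0.85 and -0.41, PRRC2C at 0.91 and -0.51, and the splicing factor SRSF2 at -1.78, -1.65 and 0.29. None of these 3 is among the 24 named genes.

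Low reads of endoderm genes in ectoderm came mostly from 1 library. Summed over the 12 named endoderm genes, the ectoderm libraries held 70, 97, 149 and 1231 reads. Replicate 4 was the highest for 8 of the 12 genes, at a median of 0.107% and at most 0.230% of the endoderm mean. GDF3 and NKX2-1 had 0 reads in all 4 ectoderm libraries. The calls of all 12 genes held without replicate 4, and the values that moved by more than 1.5-fold are given beside each gene above, with LHX1 (-13.88) and NODAL (-12.40) the others. In the reverse direction, the endoderm libraries held 16 to 36 reads summed over the 12 named ectoderm genes. Leaving out endoderm replicate 4 moved the fitted log2 fold change of FEZF1 from 13.98 to 15.57, leaving out endoderm replicate 1 moved that of PAX3 from 9.12 to 10.38, and leaving out ectoderm replicate 2 moved that of FOXA2 from -11.12 to -12.59. For LHX1, NODAL, FEZF1 and FOXA2 the library left out held the only reads of the lower group. Their fitted values without it depend on how the fit treats 0 reads, and only the lower bounds given above apply. The source of the low reads in either group was not tested.

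**Figure D5:**
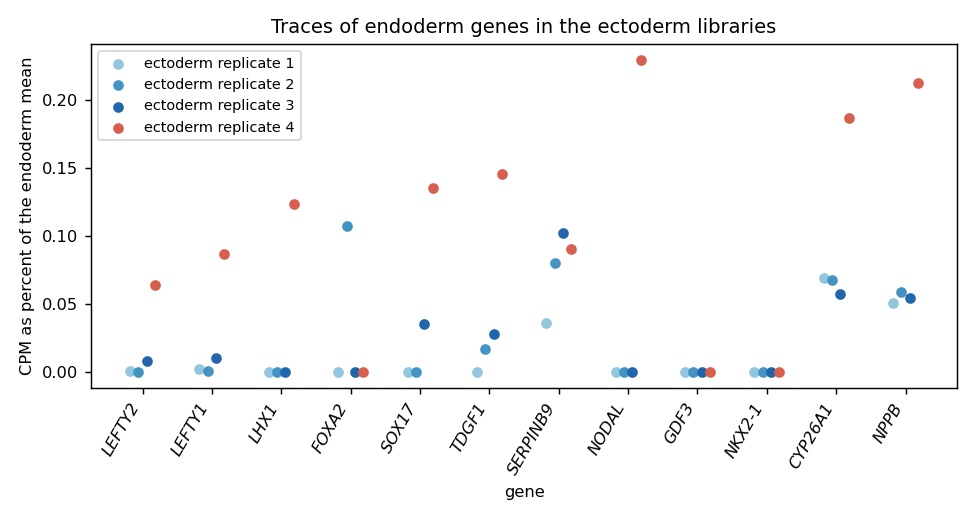
CPM of the 12 named endoderm genes in each ectoderm library, as percent of the endoderm mean of the gene (vertical axis, linear), 1 point per library. Replicate 4 is highest for 8 of the 12 genes and no point is above 0.230%.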

How the data were processed

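The authors deposited a raw read count for each probe, obtained with a custom aligner, per the labels. How many mismatches that aligner tolerated, its version and the sequences of the probes are not given in the sources used here, and hg38 and DESeq2 are listed without a role in the submitters' processing notes. No normalization is recorded, and no molecular identifiers are named, so floors cover counting error only. The merged table was used, and 16 of its columns, which fit none of the labels, stayed out.

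Probe counts were summed per gene. The 16 control libraries were fitted together in R 4.3.3 with edgeR 4.0.16 (filterByExpr, TMM, robust quasi-likelihood test, two-sided, Benjamini-Hochberg adjustment over all 387 genes tested, threshold 0.05), with ectoderm minus endoderm as the contrast. The fit was tested on simulated data, where 94.4% of 2-fold and 100% of 4-fold changes among 384 genes were called and 2.03% of calls were false. Changes were simulated in ectoderm only, in 199 genes, either way, around means pooled over all groups. The far larger differences of the real contrast were not simulated, so these rates need not hold for the real calls. No 2 libraries of a group agreed within sampling noise (chi-square per degree of freedom of 8.29 or more). Named genes were the 12 with the largest fitted log2 fold change each way among called genes whose higher group averaged 50 reads or more, all genes of the fixed lists, and genes with probes called in opposite directions. Where no library of the lower group had more than 3 reads, a fold is a lower bound against 3 reads in each library. The SE of a log2 fold change was taken as its absolute value divided by the square root of the test's F statistic. The libraries compared, the marker genes and the lists were chosen with earlier results of these data known.

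Alternatives were DESeq2 1.42.0, other scalings (median-ratio, upper-quartile, library totals, ACTB, GAPDH and PGK1 as reference genes), filters on low counts, the 8 libraries alone, a replicate block, single probes and leaving out each library. Library totals without LEFTY1 and LEFTY2 were added after the data were seen. Gene positions and promoters are from RefSeq (GRCh38.p14): 442 of the 452 panel genes matched by symbol and 10 through a probe's transcript. LEFTY transcripts were aligned with blastn 2.17.0. Of the 12 named endoderm genes, those without a promoter entry are not shown. Some genes of the lists are not reported here by name.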

Additional observations from a re-analysis of the deposited data

Results flagged for a closer look

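Libraries were compared by Dixon's ratio for the 24 named genes, PAX6, total reads and the share of reads in the 10 highest genes. In each group the highest and lowest of 4 libraries were set against the others. Combinations in which all 4 libraries had the same value were left out. A library stood apart in 10 of the 48 combinations of measure and group examined (20.8%), where chance gives about 5% for normally distributed values. Ectoderm replicate 4 accounted for 6 of them. In that library LEFTY2 was at 236 CPM (1.5 to 29.6 in the other 3), LEFTY1 at 27 CPM (0.301 to 3.25), CYP26A1 at 34.1 CPM (10.6 to 12.6), NPPB at 31.5 CPM (7.57 to 8.72), LHX1 at 0.852 CPM and NODAL at 0.568 CPM (0 reads in the other 3 for both). All 6 are genes high in endoderm, and their levels in this library stayed at or below 0.230% of the endoderm mean.

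The remaining 4 lay in other libraries. FOXA2 was at 0.301 CPM in ectoderm replicate 2 and FEZF1 at 0.295 CPM in endoderm replicate 4, each a single read against 0 in the other 3 libraries. NODAL was at 262 CPM in endoderm replicate 2 (241 to 243 in the others), and DPYSL5 at 284 CPM in ectoderm replicate 3 (361 to 375). In groups mostly at 0, 1 read is enough to stand apart.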

How the results depend on the processing

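The direction and call of all 24 named genes held in all 408 whole-gene values and 57 of 57 single probes that could be computed. These 24 were picked as the extremes of the same contrast, so that outcome was close to fixed in advance. Of 1959 whole-gene values of the other genes examined, 23 lost their call, 19 gained one and 16 turned sign with a call in either fit. Of 260 single-probe values of those genes, 15 lost their call, 3 gained one and 5 turned sign. A gene too low for a filter or without an adjusted p in DESeq2 gives no value. Across settings 322 to 350 genes were called, apart from 241 of 278 with at least 10 reads in every library, where 98 were higher in ectoderm, and 470 of 585 probes. With reference gene scaling 101 genes were higher in endoderm. The median of all genes moved by 0.34 with upper-quartile factors, 0.48 with library totals and 0.88 with reference genes, and small differences turned sign with it. These were ZIC2 (0.26, 0.41 and 0.80 in that order), VIM (0.039, 0.19 and 0.58), LIN28A (0.17, 0.32 and 0.70) and ZFP42 (0.25, 0.39 and 0.79), and with reference genes alone HESX1 (0.23), DNMT3B (0.16), BBC3 (0.21) and PGK1 (0.26). Single probes turned LIN28A (0.34), CADM1 (-0.41), PRRC2C (-0.51), SRSF2 (0.29) and RPS19 (-0.40), and the cause was not tested. Leaving out 1 library gave 329 to 341 genes called, 164 to 170 higher in ectoderm, 159 to 177 higher in endoderm, and 711 to 727 probes. With a replicate block 338 genes and 735 probes were called, 169 and 169 of the genes each way. Same-numbered libraries correlated at r from -0.00081 to 0.26 over 387 genes, highest for replicate 3. Of the 4 ectoderm libraries, 3 correlated best with their own number. Read totals ranked by number in the same order in ectoderm, endoderm and mesoderm. Some probes were high in replicate 3 of both cultures, such as 1 HSPA5 probe (587 CPM against 227 to 309 in ectoderm, 1674 against 993 to 1137 in endoderm). The main fit did not take the numbers as a pairing, and what same-numbered libraries share was not tested. Leaving out 1 library also moved NEUROG2 (6.60, or 8.96 without endoderm replicate 1), FOXD3 (-7.79, or -9.25 without ectoderm replicate 4) and NANOG (-9.02, or -10.60 without ectoderm replicate 3). For FOXD3 and NANOG the library left out held the only ectoderm reads, so their values without it depend on how the fit treats a group without reads.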

Other observations

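The genes below lie outside the lists and were named after their values were seen, so they describe those genes and not the groups they belong to. GPC3, a heparan sulfate proteoglycan of the cell surface, had 39642, 37754, 35106 and 38414 CPM in ectoderm and 211, 231, 211 and 195 CPM in endoderm (log2 fold change 7.48 ± 0.08, SE, edgeR adjusted p = 3.64e-25). On the endoderm side SLC7A5, an amino acid transporter, averaged 4418 against 46.6 CPM, CPE, a peptide-processing enzyme, 11104 against 459 CPM, S100A10, a calcium-binding protein family member, 7219 against 9.60 CPM, and GAL, the neuropeptide galanin, 1789 against 5.75 CPM. None of these 5 had overlapping groups.

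The ribosomal genes RPS19 (203743 against 49036 CPM), RPL5 (45031 against 15817 CPM), RPL13A (61163 against 21067 CPM) and RPL15 (2579 against 1642 CPM) were called higher in ectoderm, as was the elongation factor EEF1A1 (44138 against 16640 CPM), while RPS21 was not (52.0 against 36.7 CPM, edgeR adjusted p = 0.37). RPS19 probes disagreed, with 2 at 2.16 and 2.12 and 1 at -0.40 that was not called. Among genes of dividing cells, TOP2A (5108 against 858 CPM), CENPF (1124 against 367 CPM), DLGAP5 (392 against 109 CPM) and MKI67 (674 against 318 CPM) were all higher in ectoderm, beside 43.4% of all genes tested. Their levels in ectoderm stood near the hESC means for CENPF (1216 CPM) and MKI67 (647 CPM).

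Of chaperones of the endoplasmic reticulum, HSPA5 was given above and 3 others were also higher in endoderm (43.2% of all genes tested). HSP90B1 averaged 14410 CPM in endoderm and 3328 CPM in ectoderm (log2 fold change -2.11), CALR 23076 and 11933 CPM (-0.95), and DNAJC3 240 and 63.7 CPM (-1.92).

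Of genes of the DNA damage and stress response outside the list, 3 that were higher in ectoderm (43.4% of all genes tested) are given here. DDB2 averaged 701 against 42.2 CPM (log2 fold change 4.04 ± 0.11, SE, edgeR adjusted p = 1.08e-18), SESN3 1445 against 116 CPM and TNFRSF10B 1084 against 409 CPM.

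Of 4 metallothionein genes, 3 were called higher in ectoderm than in endoderm (43.4% of all genes tested). All 4 had their highest mean in hESC among these 3 groups. MT1F averaged 136 CPM in ectoderm, 5.90 CPM in endoderm and 930 CPM in hESC, MT1X 29.4, 5.29 and 1205 CPM, and MT2A 63.4, 6.59 and 491 CPM. MT1G, at 0.802, 0.904 and 276 CPM, was not called between the cultures. Each was measured by 1 probe. These genes are related to one another, and whether reads are shared between them was not tested.

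The reference genes were not level between the cultures. ACTB averaged 40964 CPM in ectoderm and 102339 CPM in endoderm (-1.32), PGK1 1065 and 1636 CPM (-0.62), and GAPDH 30458 and 30044 CPM (0.02, not called). GAPDH stood at 94577 CPM in hESC.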
